A study of Mus musculus with 8 samples.

Results

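Antiviral effectors that interferon induces, and the sensors that detect foreign RNA, were examined in naive CD4 T cells by RNA-seq. The set holds 36 genes and was defined by gene symbol, as interferon-induced effectors outside the IRF, STAT, PYHIN, Schlafen, GTPase, TRIM and PARP families. All 36 were found among the 16418 genes of the deposited normalized table, and 35 had enough reads to be among the 11772 genes tested. The exception was Ifitm3. The cells were sorted as naive CD4 T cells (CD3+, CD4+, CD25- and CD44low/- among the gates) from mouse spleen and lymph node. All mice were Satb1fl/fl x CD4-CreERT2wt/+, so both groups carry the floxed Satb1 alleles and a tamoxifen-dependent Cre recombinase under CD4 sequences. The 4 KO libraries (Sample_2907_KO, Sample_2908_KO, Sample_2909_KO and Sample_2910_KO) came from tamoxifen-treated mice, and the labels name no drug for the 4 WT libraries (Sample_2911_WT, Sample_2913_WT, Sample_2914_WT and Sample_2915_WT). Age, and whether libraries came from single or pooled mice, are not stated in the labels. Tamoxifen is named for the KO group alone, so drug and intended deletion cannot be told apart.

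Type I interferons bind a receptor of IFNAR1 and IFNAR2 chains, whose kinases JAK1 and TYK2 phosphorylate STAT proteins. Together with IRF9 these form ISGF3, which binds interferon-stimulated response elements (ISREs) in promoters and switches on antiviral genes. The products sense viral RNA in the cytosol, block translation or entry, degrade RNA, or modify other proteins with the ubiquitin-like protein ISG15. In resting T cells many of these genes are transcribed at a low level without infection.

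Before the values, promoter stretches are shown for some members whose window held an ISRE match, because an ISRE is a common control element of this gene class. Members without a match are not shown. RefSeq promoter windows (GRCm38.p6, 250 bases before to 50 after the annotated start) were matched by symbol for 27 of the 36 members. Each stretch is 5′ to 3′ on the gene's own strand, and capitals mark matches to the ISRE core GAAANNGAA, searched on both strands.

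Isg15, chr4:156200861-156200911, minus strand: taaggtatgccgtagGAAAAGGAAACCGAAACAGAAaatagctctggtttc
Ifit1, chr19:34640765-34640828, plus strand: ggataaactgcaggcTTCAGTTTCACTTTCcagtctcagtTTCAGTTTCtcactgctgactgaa
Ifit3, chr19:34583359-34583450, plus strand: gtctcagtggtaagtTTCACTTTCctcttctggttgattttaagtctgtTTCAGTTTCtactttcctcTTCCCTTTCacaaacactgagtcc
Ifit3b, chr19:34607755-34607846, plus strand: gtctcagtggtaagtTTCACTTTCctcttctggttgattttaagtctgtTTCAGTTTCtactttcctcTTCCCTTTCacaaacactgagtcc
Oas1a, chr5:120907516-120907560, minus strand: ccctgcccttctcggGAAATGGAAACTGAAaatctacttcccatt
Oas3, chr5:120777705-120777749, minus strand: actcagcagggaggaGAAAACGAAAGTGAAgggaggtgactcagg
Rsad2, chr12:26456548-26456586, minus strand: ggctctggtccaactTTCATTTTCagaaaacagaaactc
Bst2, chr8:71537573-71537617, minus strand: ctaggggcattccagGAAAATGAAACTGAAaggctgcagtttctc
Ddx58, chr4:40239799-40239837, minus strand: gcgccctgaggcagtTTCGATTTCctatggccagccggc

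The stretches of Ifit3 and Ifit3b were identical over all 92 bases. In Isg15, Ifit1, Oas1a, Oas3 and Bst2 neighbouring matches overlapped. The core was found in 16 of the 27 matched members (59.3%), against 9.76% of the 27025 genes with a window. In the member windows that held it, 23 of 32 matches lay within 200 bases upstream of the start. Those bases make up most of the 300-base window, and positions over all genes were not compared, so this count does not show clustering. The gamma-activated site TTCNNNGAA, also searched on both strands, was found in 9 of the 27 (33.3%), against 9.55% of all genes, and 3 of its matches overlapped an ISRE core. No window was held here for Dhx58, Tor3a, Rtp4, Mx2, Zbp1, Usp18, Mx1, Ifi27l2a and Oas2. The median log2 fold change (KO against WT) was 1.22 over the 15 tested members with the ISRE core and 0.62 over the 11 without it; 12 of the 15 and 10 of the 11 were called higher. A gene with several windows was counted as having the core if any of them held it. Shisa5, with 5 windows, counted only through matches after the start in the window at chr9:109054616-109054915. The 9 tested members with no window had a median of 0.93, and 8 were called. Among those without the core were Cmpk2, Oasl2, Oasl1 and Fam111a, which rose, and Ifit2, which was not called (by the edgeR test described next). Fam111a had the lowest adjusted p of the set. A match describes letters in a window and does not show that a factor binds there.

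KO libraries held 7544075 to 9253620 reads and WT libraries 5227758 to 21998174. Satb1, the targeted gene, averaged 909.9 ± 87.2 CPM over the KO libraries and 1033 ± 41.4 CPM over the WT libraries (± SD, n = 4 per group). Its ranges overlapped (adjusted p = 0.0582), so KO and WT name the labels here and do not state that Satb1 was lost. All 14 markers of naive CD4 T cells were detected, at a summed 10311 to 10955 CPM in KO and 10422 to 10862 CPM in WT, with 2 called higher and 4 lower (Cd4, Trbc2, Ccr7 and Tcf7) by the test below. CPM is the read count of a gene scaled to the TMM-adjusted size of its library, fold changes are KO relative to WT, and a gene was called at a Benjamini-Hochberg adjusted p under 0.05 over all genes tested (edgeR quasi-likelihood test).

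Antiviral genes were higher in KO. Of the 35 tested members 30 were called higher and 0 lower, while 6.39% of all tested genes were called, 3.98% higher and 2.41% lower. No tested member had a fold change below 0 on the log2 scale, with edgeR or with DESeq2. The median log2 fold change was 0.93 over the tested members and 0.00 over all genes. In 30 of the 35 the 4 KO libraries lay above all 4 WT libraries, which was the case for 6.23% of all tested genes. In 0 members did all KO libraries lie below all WT libraries, as 4.86% of tested genes did. The size of the rise differed widely: of the 30 called members, 14 rose at least 2-fold, 7 between 1.5-fold and 2-fold, and 9 by less. Ifit3, at 3.31-fold, was not called and is not among the 14. These 14 were 21.5% of the 65 genes called at least 2-fold higher and 40.0% of the tested members. Summed over all members except Shisa5, which has the most reads of any member, the level was 2757 to 3332 CPM in KO and 1911 to 2138 CPM in WT. In bulk RNA, a change in the number of expressing cells and a change per cell cannot be told apart.

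**Figure D1:**
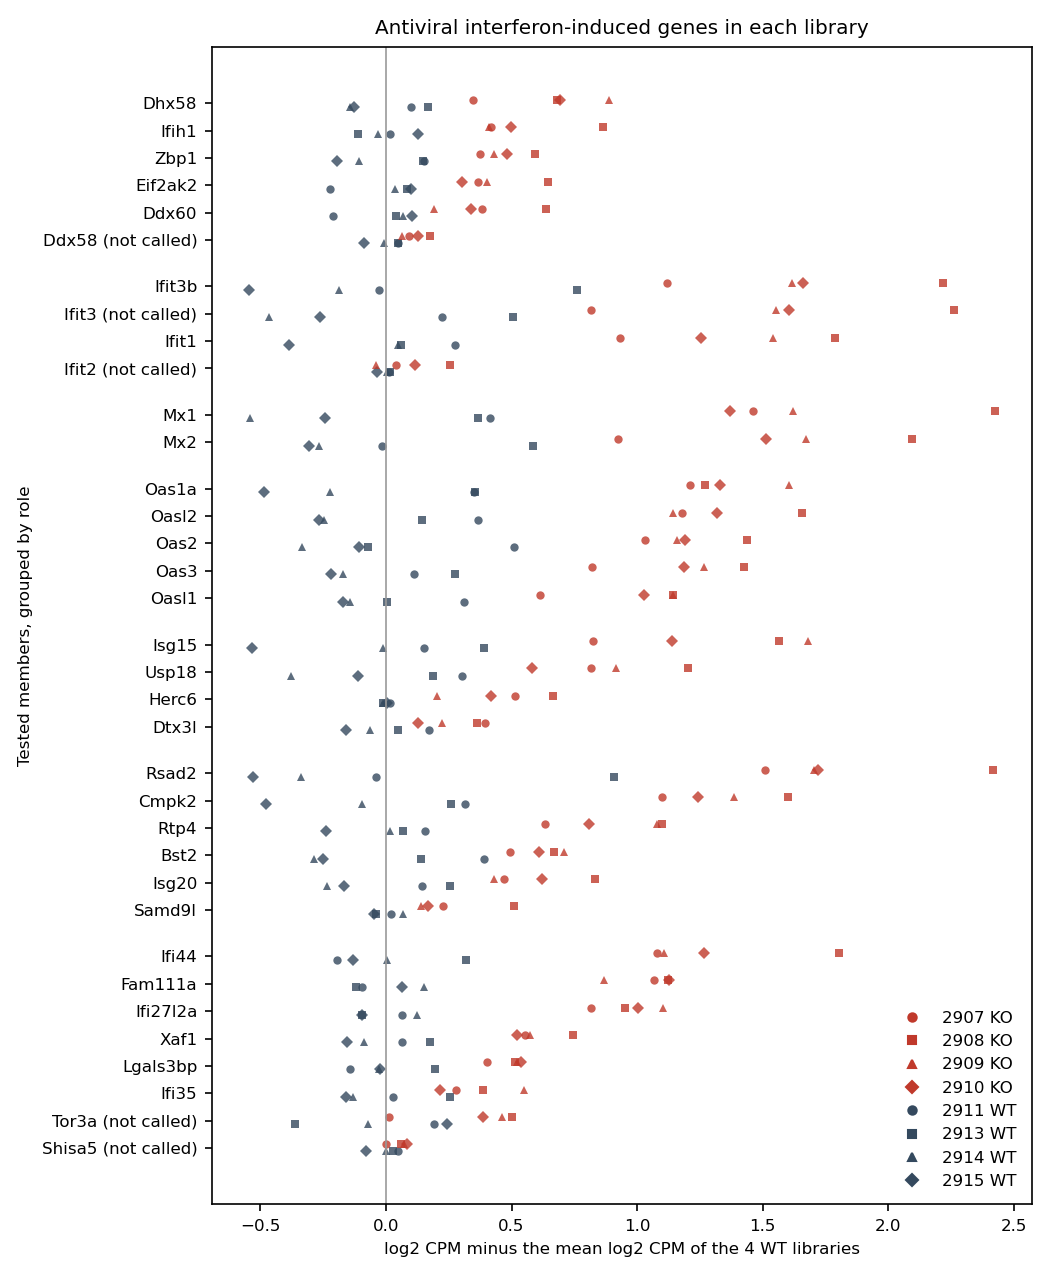
Log2 CPM of each tested member in each library, relative to the mean of the 4 WT libraries (x axis, log2 units), with members grouped by role (y axis); red marks KO, dark blue WT, and marker shapes name libraries without pairing them. In 30 of 35 members all red points lie to the right of all blue points, and Sample_2908_KO (red square) is often farthest right.

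Among the cytosolic RNA sensors the changes were small. Of 6 members 5 were called higher, with log2 fold changes between 0.12 and 0.69. Dhx58 encodes LGP2, a regulator of the other RIG-I-like receptors. It stood at 31.9, 40.2, 46.5 and 40.6 CPM in KO (libraries in the order given above, here and below) and 26.8, 28.1, 22.64 and 22.85 CPM in WT. Every KO library was above every WT library, and the log2 fold change was 0.69 (SE 0.11, adjusted p = 6.6e-05). Ifih1 encodes MDA5, the sensor of long double-stranded RNA. It stood at 49.0, 66.9, 48.7 and 51.8 CPM in KO and 37.1, 33.9, 35.8 and 40.0 CPM in WT, with Sample_2908_KO far above the other KO libraries. Its log2 fold change was 0.56 (SE 0.098, adjusted p = 0.000234). Zbp1, a sensor of Z-form nucleic acid linked to cell death, was at 210.8, 245.2, 219.05 and 226.7 CPM in KO and 180.5, 180.0, 150.9 and 141.8 CPM in WT (log2 fold change 0.48, SE 0.072, adjusted p = 8.49e-05).

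Ddx58, which encodes RIG-I, the sensor of RNA with an exposed triphosphate end, was the sensor that was not called. It stood at 241.4, 255.8, 237.1 and 247.5 CPM in KO and 234.1, 234.3, 225.4 and 213.0 CPM in WT. The groups did not overlap, but the gap was narrow and the log2 fold change was 0.12 (SE 0.054, adjusted p = 0.243). The ratio of Dhx58 to Ddx58 CPM within a library was 0.162 ± 0.026 in KO and 0.111 ± 0.0085 in WT (± SD, n = 4 per group). This pair was chosen for its difference, so the ratio is given without a test. Of the other sensors, Ddx60, a helicase linked to RIG-I signalling, rose by a log2 fold change of 0.38 (adjusted p = 0.00485). Eif2ak2, which encodes the RNA-activated kinase PKR that halts translation, rose by 0.42 (adjusted p = 0.0039).

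The IFIT proteins bind viral RNA with foreign end structures and block its translation. The 4 member genes lie in 1 cluster on chromosome 19 (mm10), Ifit2 at 34550694 to 34576419, Ifit3 at 34583531 to 34588731, Ifit3b at 34607970 to 34613401 and Ifit1 at 34640871 to 34650009, all on the plus strand. Ifit1bl1 and Ifit1bl2 lie between them and are not members. The 4 genes did not move as a unit: 2 were called higher, and in 3 KO and WT libraries did not overlap. Ifit1 was at 51.2, 92.75, 78.2 and 64.15 CPM in KO and 32.4, 27.9, 27.7 and 20.4 CPM in WT, a log2 fold change of 1.43 (SE 0.22, adjusted p = 0.0111). Ifit2 was at 111.6, 129.7, 105.7 and 117.8 CPM in KO and 109.6, 109.8, 109.1 and 106.0 CPM in WT. Its groups overlapped and its log2 fold change was 0.10 (SE 0.065, adjusted p = 0.473). The ratio of Ifit1 to Ifit2 within a library was 0.615 ± 0.136 in KO and 0.249 ± 0.042 in WT (± SD, n = 4 per group), a description with no test because the pair was picked after its values were seen.

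**Figure D2:**
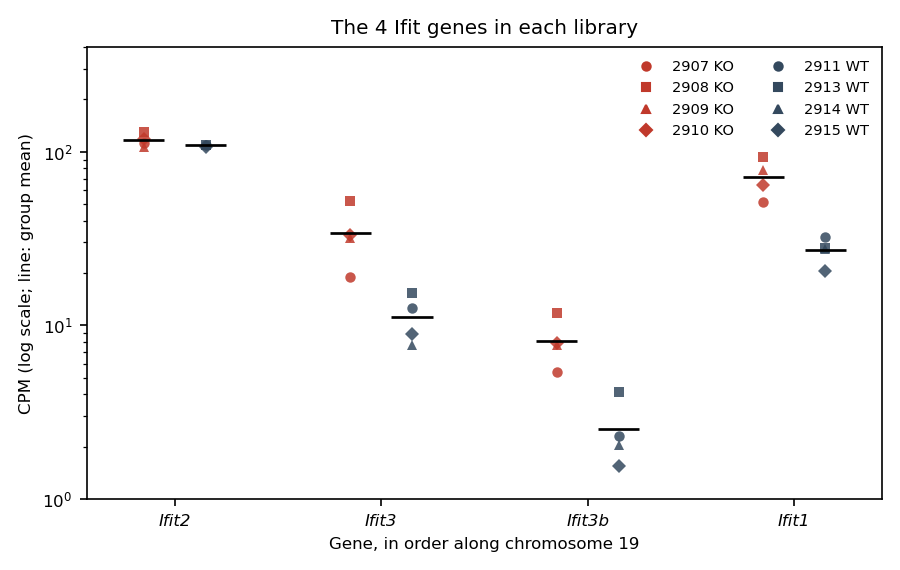
CPM (y axis, log scale) of the 4 Ifit genes in their order along chromosome 19 (x axis), with 1 point per library, KO in red and WT in dark blue, and a line at each group mean. Ifit2 sits near 110 CPM in both groups (KO mean 116.2, WT mean 108.6), whereas KO lies above WT in every library for Ifit3, Ifit3b and Ifit1.

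Ifit3 had a large but uneven rise, at 19.1, 52.2, 31.9 and 33.1 CPM in KO and 12.5, 15.3, 7.71 and 8.92 CPM in WT. All KO libraries were above all WT libraries, yet Sample_2907_KO and Sample_2908_KO differed more than 2-fold. The log2 fold change of 1.73 (SE 0.38) missed the threshold with edgeR (adjusted p = 0.0534). It passed in 4 of the 18 alternatives described below. These were DESeq2 (adjusted p = 0.000326), edgeR without robust dispersion (0.000135), and edgeR without Sample_2907_KO (0.00918) or without Sample_2908_KO (0.0229). In the other 14 alternatives Ifit3 was not called, with adjusted p up to 0.299. Ifit3b was at 5.37, 11.7, 7.67 and 7.90 CPM in KO and 2.32, 4.15, 2.05 and 1.56 CPM in WT, a log2 fold change of 1.80 (SE 0.28, adjusted p = 6.17e-05). These genes share 41.1% of the 75-base words of the Ifit3 transcripts, the length of 1 read, so their reads may be split or lost between them. The levels of the pair followed the same order of libraries in KO, with Sample_2907_KO lowest and Sample_2908_KO highest. Those libraries were also lowest and highest in KO for Ifit1, so this is not particular to the pair. In WT the order differed, with Sample_2914_WT lowest for Ifit3 and Sample_2915_WT lowest for Ifit3b.

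MX proteins are dynamin-like GTPases that trap viral components. Mx1 was at 12.6, 24.7, 14.05 and 11.8 CPM in KO and 5.98, 5.77, 2.99 and 3.72 CPM in WT, with Sample_2908_KO the high KO library. The log2 fold change was 1.91 (SE 0.28, adjusted p = 0.00071). Mx2, which the deposited table types as a polymorphic pseudogene, was at 7.57, 17.3, 12.9 and 11.5 CPM in KO and 3.86, 5.95, 3.21 and 3.12 CPM in WT (log2 fold change 1.70, SE 0.24, adjusted p = 3.06e-05). KO and WT did not overlap for either gene. They share few 75-base words, 1.71% of those of Mx1.

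Every tested OAS member was at least 2-fold higher, as were both MX genes. OAS enzymes make oligoadenylate on contact with double-stranded RNA, and Oasl1 and Oasl2 encode OAS-like relatives. All 5 members were called and separated the groups. Oas1a was at 14.2, 14.8, 18.7 and 15.4 CPM in KO and 7.72, 7.75, 5.13 and 4.24 CPM in WT, a log2 fold change of 1.43 (SE 0.18, adjusted p = 2.06e-06). Oasl2 was at 36.4, 50.8, 35.4 and 40.0 CPM in KO and 20.7, 17.7, 13.4 and 13.2 CPM in WT, a log2 fold change of 1.39 (SE 0.14, adjusted p = 6.61e-07). In both genes the lowest KO library was well above the highest WT library. Oas2 (log2 fold change 1.23), Oas3 (1.22) and Oasl1 (1.04) made up the rest, with adjusted p between 1.32e-05 and 0.00951. Of the Oas1a words, 47.6% also occur in Oas1g, which had 2 KO reads and 1 WT read.

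ISG15 is a ubiquitin-like protein that is attached to other proteins and is secreted. Isg15 was at 19.8, 33.2, 35.99 and 24.6 CPM in KO and 12.4, 14.6, 11.01 and 7.62 CPM in WT, with no overlap (log2 fold change 1.37, SE 0.23, adjusted p = 0.00362). Usp18, the protease that removes ISG15 and also damps the interferon receptor, was at 52.8, 69.0, 56.5 and 44.7 CPM in KO and 36.9, 34.1, 22.9 and 27.6 CPM in WT (log2 fold change 0.93, SE 0.17, adjusted p = 0.00873). Herc6, the main ISG15 ligase of mouse cells, rose less. It was at 92.9, 103.2, 74.9 and 87.0 CPM in KO, and its WT libraries were almost level at 65.8, 64.5, 64.5 and 65.2 CPM (log2 fold change 0.46, SE 0.079, adjusted p = 0.000173). Dtx3l, a ubiquitin ligase partner of PARP9, rose by 0.28 (adjusted p = 0.01) with overlapping groups. Its call was lost without Sample_2907_KO (adjusted p = 0.0549) or Sample_2915_WT (0.0587), and 8.0% of its exon bases overlap Parp9 on the opposite strand. Ube2l6, the conjugating enzyme of ISG15 and no member, averaged 4.19 ± 0.86 CPM over KO and 0.951 ± 0.736 CPM over WT libraries (± SD, n = 4 per group; log2 fold change 2.44, adjusted p = 0.000147).

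Among effectors that act on membranes, nucleotides or RNA, 6 of 6 tested members rose. Rsad2 encodes viperin, which makes a chain-terminating nucleotide. It was at 17.3, 32.7, 19.9 and 20.1 CPM in KO and 5.79, 11.4, 4.68 and 4.07 CPM in WT, the largest log2 fold change of the set (1.93, SE 0.35, adjusted p = 0.0183). Sample_2913_WT was the high WT library and Sample_2908_KO the high KO library. The call was lost without Sample_2911_WT (adjusted p = 0.0609), Sample_2914_WT (0.0558) or Sample_2915_WT (0.0537). Cmpk2, a nucleotide kinase that supplies the substrate of viperin, lies beside it on chromosome 12 (26469204 to 26479837, plus strand; Rsad2 26442746 to 26456452, minus strand). Cmpk2 was at 35.05, 49.7, 42.8 and 38.7 CPM in KO and 20.3, 19.5, 15.2 and 11.6 CPM in WT, with a log2 fold change of 1.38 and a much smaller error (SE 0.15, adjusted p = 5.71e-06).

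Rtp4, a chaperone-like regulator of interferon responses, was at 42.3, 58.4, 57.6 and 47.8 CPM in KO and 30.3, 28.5, 27.5 and 23.0 CPM in WT (log2 fold change 0.93, SE 0.11, adjusted p = 4.35e-07). Bst2 encodes tetherin, which holds budding virus at the cell surface. It rose by 0.65 (adjusted p = 0.00316), and its call was lost when libraries were thinned to equal depth (adjusted p = 0.076). The exonuclease gene Isg20 rose by 0.63 (adjusted p = 0.00268). Samd9l, a translation inhibitor, rose by 0.27 (adjusted p = 0.0112). Its call was lost without Sample_2913_WT (adjusted p = 0.0535) or Sample_2915_WT (0.0515). Ifitm3, which blocks fusion of virus in endosomes, had 5, 7, 3 and 1 reads in KO and 1, 2, 0 and 0 reads in WT. Pooled by group this was 0.47 CPM for KO against 0.067 CPM for WT, a ratio of 7.01. Its exact 95% counting interval was 2.01 to 37.5 and covers counting error only. Pooling gives most weight in WT to the deepest library, Sample_2914_WT, which had 0 reads. Averaged over libraries, the means were 0.459 CPM for KO and 0.138 CPM for WT, and the groups overlapped.

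The remaining members act in cell death or signalling or are less well defined, and 6 of 8 were called higher. Fam111a, a nuclear protease that restricts some DNA viruses, had the lowest adjusted p of the set. It was at 145.9, 151.8, 127.0 and 152.1 CPM in KO and 65.04, 64.0, 77.3 and 72.6 CPM in WT (log2 fold change 1.03, SE 0.072, adjusted p = 2.03e-11). Its lowest KO library was far above its highest WT library. Ifi27l2a, a small membrane protein gene, was at 107.0, 117.5, 130.4 and 121.7 CPM in KO and 63.5, 56.8, 66.1 and 56.9 CPM in WT (log2 fold change 0.97, SE 0.073, adjusted p = 1.02e-10). Ifi44, a cytosolic protein gene, was at 8.67, 14.5, 8.86 and 9.91 CPM in KO and 3.47, 5.05, 4.01 and 3.64 CPM in WT, a log2 fold change of 1.39 (SE 0.21, adjusted p = 3e-05).

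Xaf1, an antagonist of the apoptosis inhibitor XIAP, rose by 0.62 (adjusted p = 3.58e-06), and Lgals3bp, a secreted glycoprotein, by 0.49 (adjusted p = 6.27e-06). Ifi35 rose by 0.38 (adjusted p = 0.00974) with overlapping groups. Its call was lost with thinning (adjusted p = 0.0785) and without Sample_2909_KO (0.0564), Sample_2914_WT (0.0654) or Sample_2915_WT (0.0595). Tor3a, an AAA+ ATPase of the endoplasmic reticulum, was at 18.1, 25.4, 24.7 and 23.4 CPM in KO and 20.5, 13.9, 17.0 and 21.2 CPM in WT (log2 fold change 0.33, SE 0.13, adjusted p = 0.154). Shisa5, an endoplasmic reticulum protein linked to p53-dependent death, was at 2256, 2352, 2368 and 2387 CPM in KO and 2333, 2301, 2251 and 2133 CPM in WT. Its groups overlapped and its log2 fold change was 0.05 (SE 0.049, adjusted p = 0.628).

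The members agreed on which libraries of a group were high and low. For each member the deviation of its log2 CPM from the mean of its own group was taken. Among KO libraries Sample_2908_KO was above the group mean for 33 of 35 members and the highest for 24, and its median deviation was 0.22. Over all tested genes Sample_2908_KO was above the mean for 52.0% and highest for 28.1%. Sample_2907_KO was below the mean for all but 3 members, which were Dtx3l, Fam111a and Herc6, and lowest for 20 (median deviation -0.14). Sample_2909_KO and Sample_2910_KO lay near the mean, with median deviations of -0.03 each. Members differed in how far they followed Sample_2908_KO: its deviation was 0.70 for both Mx1 and Ifit3, but 0.08 for Fam111a, -0.02 for Ifi27l2a and -0.08 for Oas1a, and the last 2 were the members below the mean.

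Among WT libraries Sample_2911_WT and Sample_2913_WT were above the mean for 27 and 28 of 35 members (median deviations 0.10 and 0.14), and Sample_2914_WT and Sample_2915_WT for 9 and 6 (-0.09 and -0.16). Over all genes each WT library was above the mean for 50.5% to 52.2%. The pair with high values was also the shallowest, at 5227758 and 5577422 reads, against 21998174 and 11507880 for Sample_2914_WT and Sample_2915_WT. After every library was thinned to 5227758 reads, a check chosen after seeing the data, the counts above the mean were 27, 27, 11 and 6 in WT and 3, 31, 15 and 15 in KO. The median SD of log2 CPM between libraries was 0.19 in KO and 0.22 in WT for the members, and 0.12 and 0.11 for tested genes in the same range of mean CPM. Because members varied together within a group, the 30 calls are not 30 independent observations. Without Sample_2908_KO the median log2 fold change of the members was 0.82 and 31 were called.

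**Figure D3:**
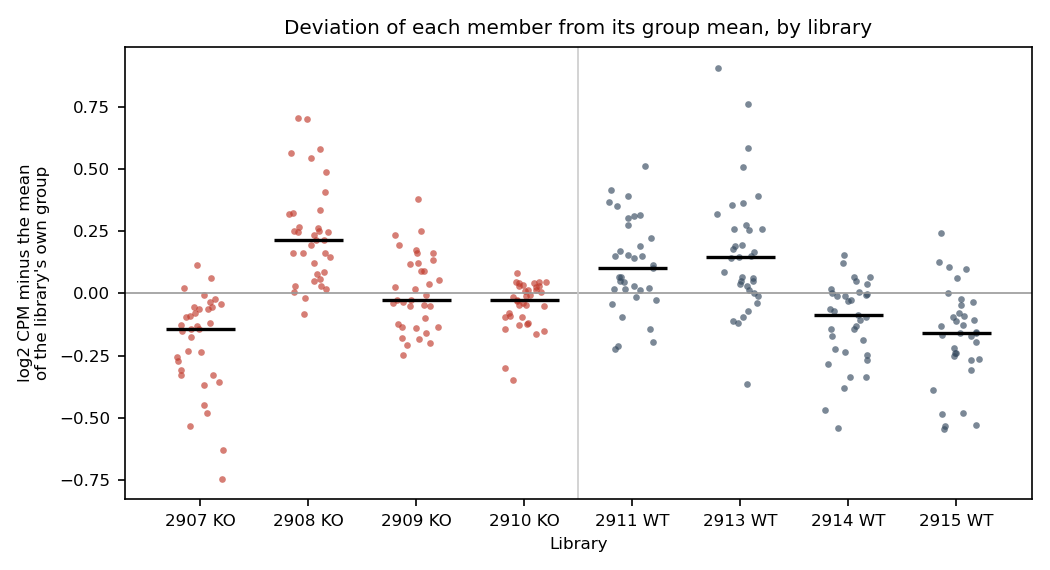
Deviation of log2 CPM from the mean of the library's own group (y axis) for the 35 tested members in each library (x axis), with 1 point per member, KO in red and WT in dark blue, and a black line at the median. Points of Sample_2908_KO sit mostly above 0 and those of Sample_2907_KO mostly below, and Sample_2911_WT and Sample_2913_WT sit above Sample_2914_WT and Sample_2915_WT.

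Members with low transcript levels in WT had the larger changes. Per kilobase of exon, mean WT levels ran from 0.659 CPM for Ifi44 to 683.8 CPM for Shisa5. The 17 members with the lowest WT level per kilobase had a median log2 fold change of 1.38, and the 17 with the highest 0.62. Over all tested genes the median was 0.00 both for genes below and for genes above the middle WT level. That split used plain CPM, not scaled to exon length. Across the 35 members, WT level per kilobase (log2) and log2 fold change had Pearson's r = -0.69 and Spearman's rho = -0.68. This describes genes measured in the same libraries, and the WT mean enters both quantities. Ifi27l2a had the second highest level in WT (131.4 CPM per kilobase) and rose 1.95-fold.

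**Figure D4:**
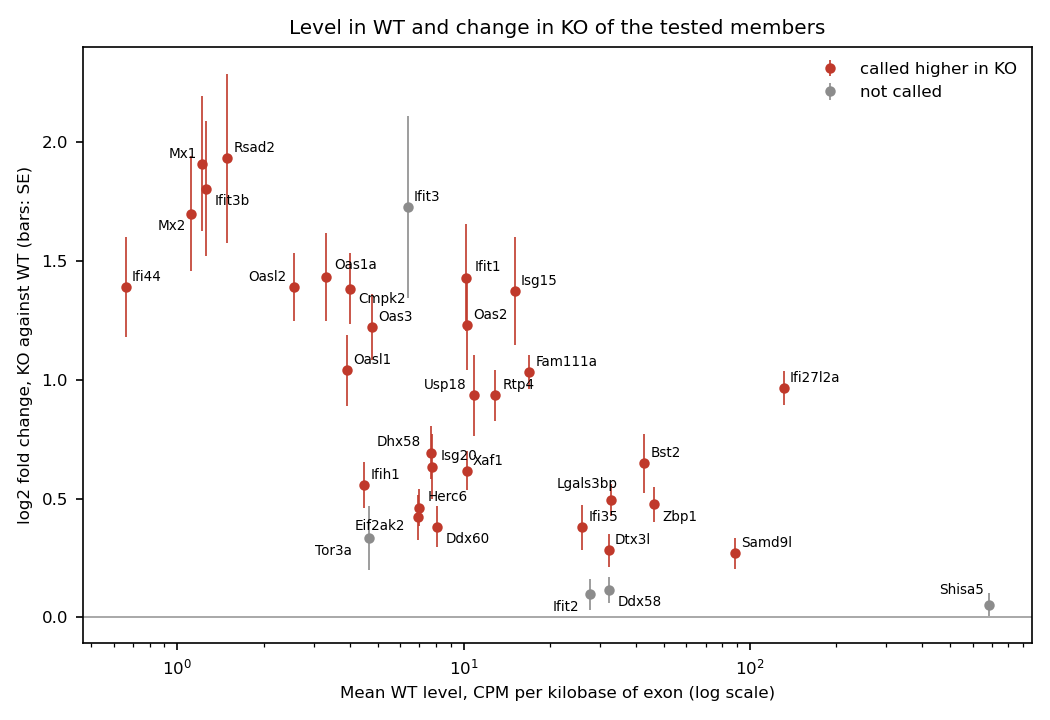
Log2 fold change of KO against WT (y axis, bars show SE) against the mean WT level in CPM per kilobase of exon (x axis, log scale) for the 35 tested members; red points were called higher and grey points were not called. Members below 2 CPM per kilobase all lie above a log2 change of 1.3, while Shisa5, at 683.8, lies near 0.

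Other genes of the interferon pathway were read from 8 lists. Of their 67 tested genes 25 were called higher (37.3%) and 0 lower, against 3.98% and 2.41% of all tested genes. Of these 25 genes, 12 were further antiviral effectors, the same class as the members. An unadjusted p under 0.05 gave 2 lower and DESeq2 gave 0. The median log2 fold change of the 67 was 0.12. No interferon ligand could be tested. Ifnb1, the 13 Ifna genes examined, Ifng, Ifnl2 and Ifnl3 were at 0 reads in every library. By the rule of 3 reads over a group, that is compatible with levels as high as 0.0882 CPM for KO and 0.0671 CPM for WT, counting error only. Among the other ligands, Ifnk and Ifnz each had 4 KO reads and 3 WT reads. Of the receptor genes, 2 of 5 tested rose, Ifngr1 (log2 fold change 1.46, adjusted p = 2.03e-11) and Ifnar2 (0.41, adjusted p = 0.000291), while Ifnar1 had 0.09 (adjusted p = 0.385). Of the signal transducers, 2 of 6 rose, the ISGF3 subunit genes Stat2 (0.53, adjusted p = 1.23e-06) and Irf9 (0.42, adjusted p = 7.35e-06). Of 6 regulatory factor genes 1 rose, Irf7, which amplifies interferon production (0.86, adjusted p = 0.00125).

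Upstream of interferon 5 of 13 tested sensors and adaptors rose. They were Unc93b1, which carries Toll-like receptors to endosomes (log2 fold change 1.71, adjusted p = 3.22e-08), Trim25, the ubiquitin ligase of RIG-I (0.31, adjusted p = 0.00125), Tmem173, which encodes STING (0.20, adjusted p = 0.0207), Mb21d1, which encodes cGAS (0.45, adjusted p = 0.0265), and Tlr7, an endosomal RNA sensor (0.51, adjusted p = 0.04). Mavs, the adaptor that RIG-I and MDA5 signal through, averaged 36.1 ± 1.37 CPM over KO and 37.1 ± 3.51 CPM over WT libraries (± SD, n = 4 per group; log2 fold change -0.02, adjusted p = 0.938). Of 11 feedback and self-nucleic-acid control genes 3 rose, Samhd1, a nucleotide hydrolase (0.85, adjusted p = 4.24e-12), Cnp (0.27, adjusted p = 0.00199) and Adar, an RNA editor (0.19, adjusted p = 0.0426). Of 26 further antiviral effectors 12 rose, led by Mov10 (0.51, adjusted p = 3.75e-06), Oas1b (0.54, adjusted p = 4.69e-05), Ube2l6 and Tdrd7 (0.88, adjusted p = 0.000312).

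Markers of other cells were read in the same libraries. Plasmacytoid dendritic cells are specialised interferon producers. Their 9 markers summed to 93.8 to 109.7 CPM in KO and 110.0 to 120.9 CPM in WT, mostly from Pacsin1, which was called lower (1 of 3 tested). The defining gene Siglech had only 2 KO reads and 1 WT read. The 14 monocyte, macrophage and neutrophil markers summed to 43.5 to 54.2 CPM in KO and 36.4 to 68.1 CPM in WT, with S100a8 and S100a9 at 0 reads, and 0 of 5 tested were called (0 at an unadjusted p under 0.05, 0 by DESeq2). The 9 conventional dendritic cell markers summed to 0.97 to 1.61 CPM in KO and 0.40 to 1.74 CPM in WT, with Cd209a, Clec10a and Ccl22 at 0 reads. The 10 B cell markers summed to 361.4 to 420.5 CPM in KO and 450.0 to 487.8 CPM in WT, nearly all from Ighm, the 1 of 5 tested that was called (lower). The B cell gene Ms4a1 had 3 KO reads and 0 WT reads. NK cell markers (43.0 to 51.4 CPM in KO, 48.4 to 55.1 CPM in WT), CD8 T cell markers (9.65 to 14.7, and 13.2 to 18.2) and red cell and platelet markers (0.22 to 0.86, and 0.17 to 0.72) overlapped between the groups. Of their 4 tested genes 0 were called with edgeR or DESeq2, and 1 CD8 marker was lower at an unadjusted p under 0.05.

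Some markers of regulatory and of activated T cells were called higher in KO. The 10 regulatory T cell markers summed to 180.1, 217.8, 263.6 and 246.8 CPM in the KO libraries and to 121.4 to 132.4 CPM in WT, with 2 of 10 called higher, Foxp3 and Tnfrsf18, and 0 lower (unadjusted p under 0.05 gave 1 lower, DESeq2 gave 0). Foxp3, the defining factor of regulatory T cells, rose by 3.45 on the log2 scale (adjusted p = 0.000881) and accounted for most of the difference in that sum, with means of 93.4 CPM for KO and 8.41 CPM for WT. Within KO the sum was highest in Sample_2909_KO and lowest in Sample_2907_KO. Of the 35 tested antiviral members, 24 were highest in Sample_2908_KO and 20 lowest in Sample_2907_KO. The 9 markers of activated or memory T cells summed to 309.8 to 335.8 CPM in KO and 218.8 to 236.8 CPM in WT, with 3 of 5 tested called higher (Il2rb, Id2 and Cd69) and Cd44 lower. The sort had gated out CD25+ and CD44-high cells. The part of these markers in the rise of the antiviral genes was not tested.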

How the data were processed

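The 8 libraries were poly(A) RNA read as single 75-base reads, per the labels' protocols. CASAVA 1.8.2, FastQC, R 3.5.3, DESeq2 1.22.2 and build mm10 are named in the submitters' processing notes. Which aligner, counter, strand setting and annotation they used is not given in the sources used here. The authors deposited whole-number read counts for 53465 gene IDs, and a normalized signal table of 16418 genes whose values are those counts over a single size factor for each library. Depth was 5227758 to 21998174 counts per library.

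The test on counts was edgeR 4.0.16's (under R 4.3.3): robust quasi-likelihood F test, TMM, filterByExpr, 11772 genes, Benjamini-Hochberg adjustment over all of them. SE was obtained by dividing the size of the log2 fold change by √F. Levels are TMM-scaled CPM, log2 CPM uses a prior count of 2, and exon lengths and coordinates come from GENCODE M21 (GRCm38), which held 99.8% of the IDs. The fit was tested on simulated data. Reads of overlapping genes on opposite strands may not be separable. The labels do not say whether libraries came from separate animals, and the p-values reflect spread among these 8 libraries, which may be technical.

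The members and gene lists were chosen with earlier results of these data known, so counts over them are descriptions. All members are named. Values by library are given for the 2 lowest adjusted p and the 2 largest fold changes per role group and for members not called or not tested, and up to 4 called genes per pathway list are named with values. Ifnar1, Mavs, Tlr7 and the 2 ratios were added after the values were seen, and some list genes are counted but not reported here by name. Alternatives were DESeq2 1.42.0, limma 3.58.1 (voom with sample weights, and trend on the deposited normalized signal, log2-transformed after adding 1), an edgeR fit that was not robust, RLE and library-size scaling, no filter, 1 CPM in 4 libraries, thinning, and leaving out libraries. No paired analysis was made, since library numbers are not shared between groups.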

Additional observations from a re-analysis of the deposited data

Results flagged for a closer look

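In 1 of 72 sets of 4 libraries (36 members in each group), 1 library stood apart by Dixon's test, which chance alone would do in about 1 in 20 sets. Ifih1 was at 66.9 CPM in Sample_2908_KO, and the nearest other KO library was at 51.8 CPM. The gap was 0.83 of the range of the group, just above the critical value for 4 libraries.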

How the results depend on the processing

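The 18 alternatives were leaving out each of 8 libraries, leaving out both Sample_2911_WT and Sample_2914_WT, and 9 changes of tool, scaling, filter or depth. The count of members called lay between 23 and 31 against 30, and the median log2 fold change of the members between 0.79 and 0.98 against 0.93. All 35 members kept their direction in all of these. Of the 30 called members 20 kept their call in every alternative, and 10 lost it in at least 1. Without Sample_2911_WT and Sample_2914_WT together, 23 members were called, and Ddx60 (adjusted p = 0.0827), Eif2ak2 (0.104), Ifi35 (0.151), Ifit1 (0.0616), Isg15 (0.0801), Isg20 (0.052) and Rsad2 (0.189) missed the threshold, with 481 genes called in all against 752. When each library was left out in turn, 562 to 836 genes were called in all, 26 to 31 members, and 18 to 23 of the pathway genes against 25. The alternatives for the agreement within groups, the pathway genes and the 2 ratios were chosen after seeing the data. Sample_2908_KO was the highest KO library for 22 to 28 members in every alternative that kept it, and for 22 to 25 where all 8 libraries were kept. The count of members without overlap was 30 with other scaling or thinning, and 30 to 32 with libraries left out. Leaving out a library can hardly lower either of these counts, so those settings say little about how stable they are. Under thinning and with libraries left out, the log2 differences of the ratios stayed between 1.17 and 1.45 (Ifit1 to Ifit2) and between 0.45 and 0.64 (Dhx58 to Ddx58). At 5227758 to 21998174 reads per library, Ifitm3 had too few reads for a test. No paired analysis was possible because library numbers are not shared between the groups. Protein identities between family members were not run.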
